A study of Mus musculus with 8 samples.

Results

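Adult bone marrow pro-B cells carrying a Lin28b retrovirus were compared with the same kind of cells carrying the empty retrovirus. The comparison used 4 of the 8 arrays of the study, namely the 2 arrays labelled as bone marrow with Lin28b and the 2 labelled as bone marrow with empty vector, and all 4 lay on 1 slide. Both groups came from adult BALB/c Rag1 null mice, 2 mice to a sort. Without Rag1, a recombinase gene, B cell development stops at pro-B in both groups. The cells of both groups were grown on OP9 stroma, a bone marrow stromal line, with the cytokine IL-7. A day after the sort, 12 wells of a plate received Lin28b and 12 received pMIG, a retroviral vector that also marks cells with GFP. GFP-positive cells were sorted 4 days later, and 100 ng of their total RNA was amplified and labelled with Cy3. The arrays numbered 1 and 2 are described as individual sorts. The labels do not say whether a Lin28b array and an empty vector array of the same number came from 1 sort.

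Lin28b is an RNA-binding protein of fetal and stem cells. It binds precursors of the let-7 microRNAs and blocks their maturation. The let-7 microRNAs pair through their seed, bases 2 to 8, with sites in target mRNAs and lower those mRNAs and their translation. In blood formation, Lin28b is known as a gene of fetal progenitors that is switched off in adult marrow, and Arid3a, Hmga2 and the Igf2bp genes are known let-7 targets of the fetal programme. Levels below are log2 of the processed signal relative to the 75th percentile of the array, and differences are Lin28b minus empty vector with limma's standard error. An adjusted p is limma's over all 39412 probes after Benjamini-Hochberg correction, and a probe was called when it lay below 0.05. The smallest two-sided p of an exact permutation test of 2 arrays against 2 is 0.333, and the calls therefore depend on limma's pooling of the spread over probes. Nothing in the labels says how far the arrays of a group are biologically independent beyond the separate sorts, and the p-values measure the spread between these arrays.

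The mature let-7 family shares its seed, shown in capitals in the RefSeq sequences (GRCm38.p6) below. They are given because the list of targets described here was assembled for this seed. Mature let-7 itself was not measured on these arrays.
let-7a-5p: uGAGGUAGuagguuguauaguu
let-7b-5p: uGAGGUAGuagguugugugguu
let-7c-5p: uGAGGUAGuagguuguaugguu
let-7d-5p: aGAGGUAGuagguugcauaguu
let-7e-5p: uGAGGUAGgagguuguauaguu
let-7f-5p: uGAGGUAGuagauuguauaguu
let-7g-5p: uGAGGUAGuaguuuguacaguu
let-7i-5p: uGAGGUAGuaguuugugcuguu

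The 4 arrays were alike in brightness. The 75th percentile of the signal lay between 1925 and 2234, 64.2% to 67.8% of probes were well above background, and correlations between arrays lay between 0.990 and 0.992. The median SD between the arrays of a group, over the 24692 probes well above background on all 4, was 0.066 with Lin28b and 0.071 with empty vector. The label of the cells was checked on 35 genes of pro-B identity, all of which were well above background on both arrays of a group. Among them Vpreb1, a part of the surrogate light chain, read 7.21 and 7.28 with Lin28b and 7.56 and 7.38 with empty vector. It was chosen for this check after its values were seen. The 4 arrays also carried signal of other cells, given beside the results it moved with.

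In a fit that did not pair the arrays by sort, few single transcripts differed by a margin that the spread of 2 arrays could resolve. Of 39412 probes, 4 were called (0.0101% of all), 3 higher (0.00761%) and 1 lower (0.00254%). The 3 higher were a Lin28b probe, the noncoding RNA H19 and Tigd4, a gene derived from a transposable element. The lower one was 2310065F04Rik, a long noncoding RNA. With the replicate number as a block 406 probes were called, and 1088 with the crossed pairing, chosen after seeing the data. Below the calls lay broader shifts, with let-7 targets mostly higher, interferon-induced genes lower without exception, and transcripts of stromal cells higher. At an unadjusted p below 0.05, 1500 of 31689 genes were higher (4.73%) and 2258 lower (7.13%), each gene represented by its probe of highest mean.

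**Figure D1:**
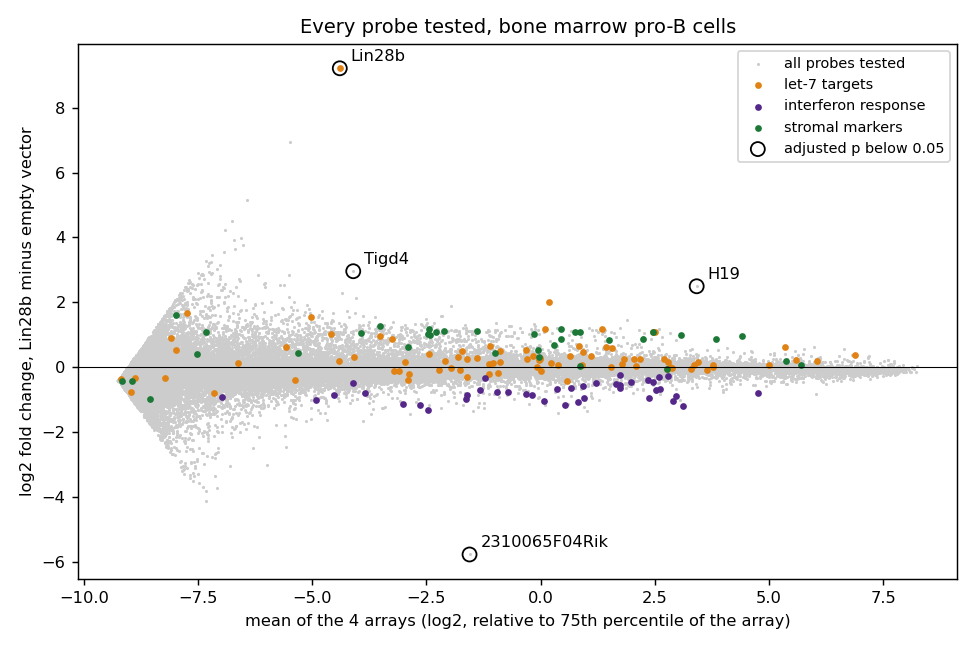
Each point is 1 of 39412 probes, with the mean log2 level of the 4 arrays on the x axis and the log2 fold change, Lin28b minus empty vector, on the y axis. The 4 called probes are circled, let-7 targets are orange, interferon response genes purple and stromal markers green. The purple points all lie below 0, between -1.33 and -0.25, and the spread of the grey points widens at low levels.

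The transgene was read by 1 of the 2 Lin28b probes. The probe at mm9 chr10:45140412-45140471 read 0.35 and 0.07 on the Lin28b arrays. On the empty vector arrays it read -9.16 and -8.85, which is not well above background. The level was at least 121-fold higher against the lowest signal that counted as well above background (difference 9.22 ± 0.20, adjusted p = 0.00187). Its 60 bases, which lie in the part of the mRNA that encodes the cold shock domain, are shown because they identify the transcript the label names.
Lin28b: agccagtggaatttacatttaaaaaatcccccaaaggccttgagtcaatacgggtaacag

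The second Lin28b probe, in mm9 at chr10:45096468-45096527 on the same strand, read -5.86 and -5.75 with Lin28b and -6.58 and -6.32 with empty vector, and was well above background on 1 of the 2 empty vector arrays. It differed by 0.64 ± 0.25 (adjusted p = 0.422), so the probes disagree in size by a wide margin, and the exons that the vector carries are not stated in the labels. Lin28a, the paralog with the same activity, read -3.13 and -3.10 with Lin28b and -2.80 and -2.63 with empty vector. Both Lin28b arrays were lower than both controls, but the difference of -0.41 ± 0.11 did not pass (adjusted p = 0.323).

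Genes of let-7 processing were otherwise close to level. Of 21 measured on this list, 13 had a positive and 8 a negative difference, and the median was 0.07 (all genes, -0.08). The Lin28b probe was the 1 called (0.0126% of all genes were called, 0.00947% higher and 0.00316% lower). Tarbp2, a partner of Dicer, had a mean of 3.58 ± 0.0016 (SD, n = 2) with Lin28b and 3.03 ± 0.1 (SD, n = 2) with empty vector (0.55 ± 0.07, adjusted p = 0.205). Dicer1, which cuts microRNA precursors and is itself a let-7 target, read 1.24 and 1.28 against 0.94 and 0.92 (0.34 ± 0.05, adjusted p = 0.206). In both genes the groups did not overlap, and neither passed.

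H19 rose, a noncoding transcript that is imprinted and abundant in the fetus. Its probe at mm9 chr7:149761492-149761551 read 4.71 and 4.61 with Lin28b and 2.28 and 2.06 with empty vector, a difference of 2.49 ± 0.09 or 5.63-fold (adjusted p = 0.0182). The other H19 probe, 0.92 kb away, read -5.44 and -5.51 against -5.62 and -5.63 (0.15 ± 0.20, adjusted p = 0.717), so the rise rests on 1 probe. The call was lost with quantile scaling, normexp, the authors' table, a fit without the trend and without empty vector array 2, while the difference stayed between 2.38 and 2.61. The 60 bases of the probe that rose, part of a noncoding RNA, are these.
H19: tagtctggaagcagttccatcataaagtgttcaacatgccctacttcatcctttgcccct

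Within 200 kb of that H19 probe the array holds 15 probes of 12 genes, H19 included. Tnni2, a troponin subunit of fast muscle, lies 131 kb away and read 1.88 and 1.72 with Lin28b against 0.80 and 0.65 (1.07 ± 0.08, adjusted p = 0.168). Lsp1, an actin-binding protein of leukocytes, lies 81.1 kb away and read 4.24 and 4.51 against 3.77 and 3.78 (0.60 ± 0.10, adjusted p = 0.238). It was chosen for mention after its values were seen. Nearer to H19, 2 probes of Tnnt3, another troponin subunit, differed in opposite directions. One was well above background with Lin28b alone and at least 1.12-fold higher, and the other differed by -0.26. Mrpl23 of the mitochondrial ribosome differed by 0.00 and the noncoding Nctc1 by 0.07. Igf2, the fetal growth factor imprinted together with H19, was not well above background on any of the 4 arrays and is given no fold.

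**Figure D2:**
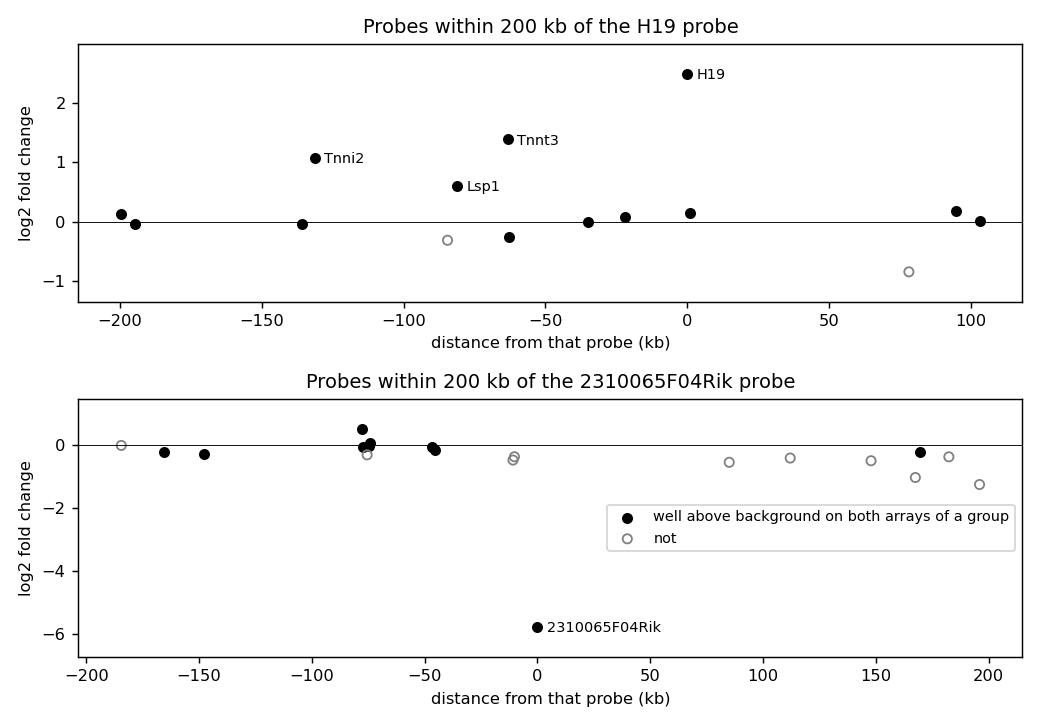
Log2 fold change, Lin28b minus empty vector, of every probe within 200 kb of the H19 probe (upper plot) and of the 2310065F04Rik probe (lower plot), by distance in kb from that probe. Filled points were well above background on both arrays of at least 1 group. H19 at 2.49 has Tnni2 at 1.07 in its window, while no filled point near 2310065F04Rik comes close to its -5.78.

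2310065F04Rik fell further than any other probe well above background in all 4 arrays moved. RefSeq lists it as a long noncoding RNA with the synonym linc-Myh, and its probe lies at mm9 chr11:66925963-66926022 beside the cluster of skeletal myosin heavy chain genes. It read -4.41 and -4.49 with Lin28b and 1.29 and 1.38 with empty vector, a fall of 54.9-fold (-5.78 ± 0.07, adjusted p = 0.000298). It remained the 1 call after quantile scaling. Both replicates of each group agreed to within 0.1, and 1 probe measures the gene. Without the trend, or without empty vector array 2, it was not called either (-5.78 and -5.73).

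The genes around it did not share that difference. Of 20 probes of 16 genes within 200 kb, its own included, 10 were well above background on both arrays of a group. Sco1, a copper chaperone of mitochondria 45.2 kb away, read -1.50 and -1.50 against -1.35 and -1.30 (-0.17 ± 0.06, adjusted p = 0.409). The probes of Myh1, Myh2, Myh4 and Myh8 were not well above background on any of the 4 arrays. All of these neighbours lie outside the naming rule and are given because of where they lie.

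Tigd4 rose from a low level. Its probe at mm9 chr3:84400869-84400928 read -2.61 and -2.63 with Lin28b and -5.60 and -5.56 with empty vector, a difference of 2.96 ± 0.14 (adjusted p = 0.0392). All 4 arrays were well above background. Of 9 probes of 6 genes within 200 kb, Tigd4 was the 1 with an unadjusted p below 0.05, and Gm6748, 12 kb away, differed by 0.01. The Tigd4 call was lost without the trend, with quantile scaling, in the authors' table, with the spread of all 8 arrays and without empty vector array 2.

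**Figure D3:**
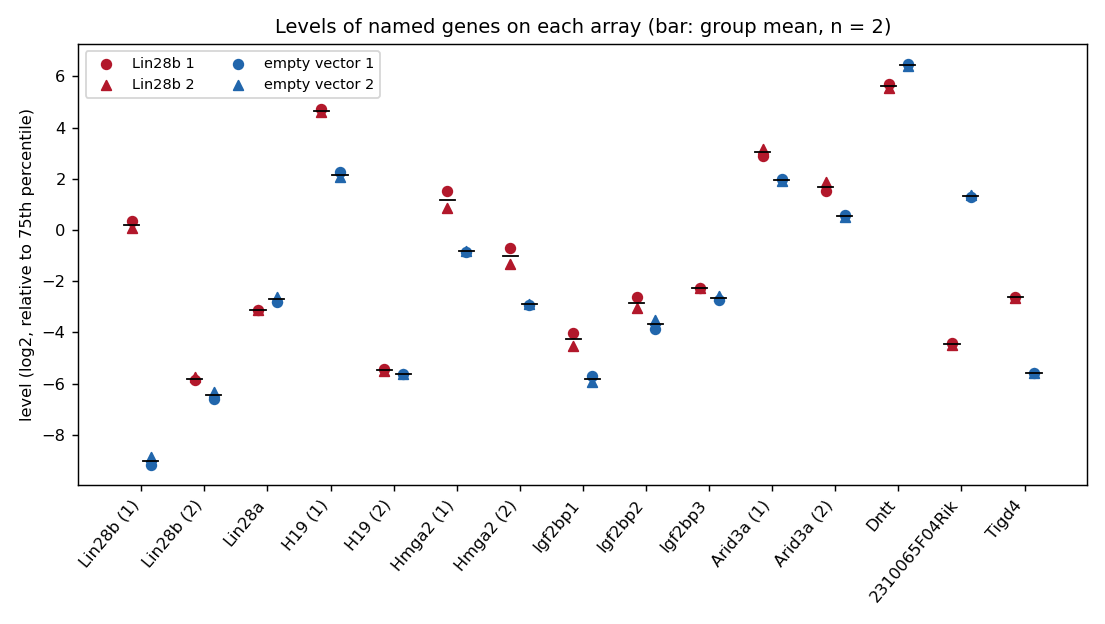
Level on each of the 4 arrays (log2 relative to the 75th percentile of the array) of 15 probes, with Lin28b arrays in red, empty vector arrays in blue and black bars at the group means (n = 2). Numbers in brackets tell apart probes of 1 gene. Hmga2 and Igf2bp1 were higher on Lin28b array 1 than on array 2, while Arid3a was higher on array 2.

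Among the chromatin proteins that let-7 represses, Hmga2 differed most. This architectural DNA-binding protein of fetal stem cells read 1.52 and 0.85 with Lin28b and -0.85 and -0.81 with empty vector (2.02 ± 0.22, 4.05-fold, adjusted p = 0.199). Its second probe read -0.70 and -1.32 against -2.93 and -2.87 (1.89 ± 0.21). On both probes the Lin28b arrays lay well above the controls, but they differed from each other by over 0.6, and neither probe was called. Hmga1, its widely expressed relative, read 7.01 and 7.12 against 6.76 and 6.60 (0.38 ± 0.10, adjusted p = 0.323).

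Arid3a, a transcription factor of fetal B lymphopoiesis, was measured by 2 probes that gave the same picture. One read 2.91 and 3.16 with Lin28b and 2.01 and 1.92 with empty vector (1.07 ± 0.10, adjusted p = 0.178). The other read 1.53 and 1.86 against 0.58 and 0.50 (1.16 ± 0.12, adjusted p = 0.199). Arid3b, its paralog, read 1.14 and 1.21 against 0.41 and 0.63 (0.65 ± 0.09, adjusted p = 0.205), while its 2 other probes differed by 0.24 and 0.10. Neither gene was called. The groups did not overlap in either Arid3a probe, and they overlapped in the Arid3b probe at 0.10.

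The Igf2bp proteins bind fetal mRNAs and steady them. Igf2bp1 read -4.00 and -4.51 with Lin28b and -5.70 and -5.92 with empty vector (1.56 ± 0.25, adjusted p = 0.232). Igf2bp2 differed by 0.85 ± 0.21 on the probe of highest mean and by 1.11 ± 0.22 on the other. Igf2bp3 read -2.25 and -2.26 against -2.74 and -2.57 (0.40 ± 0.10, adjusted p = 0.302). All 3 genes had both Lin28b arrays above both controls, as 15% of all genes did, and none was called.

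As a list, 63 of 85 measured let-7 targets had a positive difference and 22 a negative one, and their median was 0.20. The median of all 31689 genes, dim ones included, was -0.08, and 35.5% of them were positive. Among the 26445 probes well above background on at least 2 of the 4 arrays, 10647 were positive and the median was -0.04. Of the targets among them, 60 of 77 were positive. Without the transgene itself the count over all measured targets was 62 of 84 and the median 0.20. Both Lin28b arrays lay above both controls for 50 of the 85 targets, against 15% of all genes, and below them for 18, against 39.2% of all genes. At an unadjusted p below 0.05, 34 were higher (4.73% of all genes) and 4 lower (7.13% of all genes). Lin28a was among the lower ones, as were Cdk6 and Irs2, both named after their values were seen. Of the 85, 76 were well above background on both arrays of a group, and Lin28b was the 1 called (0.0126% of all genes).

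The steadiest of the targets were not those with the largest differences. Pbx2, a homeobox cofactor, read 1.70 and 1.76 with Lin28b and 1.12 and 1.10 with empty vector (0.62 ± 0.05, adjusted p = 0.168). E2f5, a cell cycle transcription factor, read -0.80 and -0.78 against -1.45 and -1.41 (0.64 ± 0.06, adjusted p = 0.178). In both, the arrays of a group differed by less than 0.1, far less than the gap between the groups. Both were named by smallest p, which itself favours a small spread between arrays. Other targets were level. Myc differed by 0.01 and Hras by 0.01, both named after their values were seen.

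Some probes of the array happen to hold the seed match itself. The letters CTACCTC, complementary to the let-7 seed, occur on the sense strand in 150 of the 39412 probe sequences (0.381%). These are the 30 bases around the match in the probes of 2 listed targets, in mm9 at chr10:119798739-119798768 for Hmga2 and chr17:34733369-34733398 for Pbx2, with the match in capitals.
Hmga2: atcaaaacacactaCTACCTCttaagtccc
Pbx2: tgactcggatatCTACCTCggagggagttt

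Of the 150 probes, 73 had a positive difference (48.7%, against 34.6% of all probes), and the median was -0.01 against -0.09 for all probes. All probes include more dim ones, since 114 of the 150 were well above background on both arrays of a group, against 26036 of 39412. Among the 26445 probes well above background on at least 2 of the 4 arrays, 10647 were positive and the median was -0.04. At an unadjusted p below 0.05, 19 of the 150 were higher (12.7%, against 4.46% of all probes) and 11 lower (7.33%, against 7.35%), and 0 were called. With the longer match CTACCTCA, which ends in the A opposite the first base of most let-7 members, 22 of 44 probes were positive and the median was -0.01, with 8 higher (18.2%) and 3 lower (6.82%) at an unadjusted p below 0.05. A match in a probe shows only that these letters lie in that stretch of the transcript. Matches elsewhere in a transcript were not looked for.

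Genes induced by interferon lay lower with Lin28b, without exception. All 40 measured had a negative difference. Their median was -0.79, where that of all genes was -0.08. In 39 of them both Lin28b arrays lay below both controls, against 39.2% of all genes, and 36 had an unadjusted p below 0.05, against 7.13% of all genes. None was called, since the smallest adjusted p was 0.168 (limma). The count stayed at 40 of 40 negative under every alternative but 1, and was 39 of 40 without Lin28b array 2. The median lay between -0.96 and -0.59 when single arrays were left out.

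The list holds sensors, regulators and effectors of the antiviral state. Ifi44, an antiviral effector, read 1.95 and 1.83 with Lin28b and 2.72 and 2.99 with empty vector (-0.97 ± 0.10, adjusted p = 0.199). Rtp4, an interferon-induced chaperone, read 2.47 and 2.29 against 3.26 and 3.58 (-1.04 ± 0.13, adjusted p = 0.205). The guanylate-binding GTPase Gbp2 read -0.04 and 0.07 against 0.61 and 0.78 (-0.68 ± 0.08, adjusted p = 0.205), and Iigp1, a GTPase against parasites in vacuoles, by -0.86 ± 0.07 (adjusted p = 0.168). The groups did not overlap in any of the 4.

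Regulators of the response lay in the same range, all named after their values were seen. Irf7, a transcription factor that amplifies interferon production, read -2.99 and -3.29 against -2.13 and -1.48 (-1.33 ± 0.24). Isg15, a ubiquitin-like modifier, read 2.64 and 2.38 against 3.38 and 4.06 (-1.21 ± 0.23). In both, the empty vector arrays differed from each other by over 0.6, and array 2 was the higher.

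That spread ran through the list. Set against each gene's mean over the 4 arrays, the median of the 40 was -0.30 and -0.38 on the Lin28b arrays, and 0.21 and 0.58 on empty vector arrays 1 and 2. The gap between the groups thus exceeded the gap within either. Without empty vector array 2, 28 of the 40 had an unadjusted p below 0.05 on the lower side, where 5342 of all 39412 probes did in that fit, and the median was -0.59.

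Other interferon-inducible GTPases, outside the list, were among the lower genes with the smallest p. Gbp6 differed by -1.45 ± 0.10 on 1 probe and by -1.25 ± 0.16 on another, and by 0.16 on the other, which the array design places on another chromosome. Tgtp2, of the same family as Iigp1, read 2.62 and 2.45 with Lin28b and 3.42 and 3.68 with empty vector (-1.02 ± 0.11, adjusted p = 0.199). The genes Gm4951 (-1.16 ± 0.11) and F830016B08Rik (-1.41 ± 0.19) were also among the 12. GTPases of these families are close copies, so their probes may read more than 1 member.

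MHC class I genes, which present peptides from inside the cell and are themselves interferon-inducible, lay slightly lower. Of 24 measured, 22 were negative, with a median of -0.29, and in 21 both Lin28b arrays lay below both controls (39.2% of all genes). Tap2, a subunit of the peptide transporter, read 3.95 and 3.86 against 4.34 and 4.39 (-0.46 ± 0.06, adjusted p = 0.205). Tapbp, which loads peptides, read 2.04 and 2.10 against 2.42 and 2.65 (-0.46 ± 0.09, adjusted p = 0.270). B2m, the shared light chain, differed by -0.02 ± 0.14 and was named after its value was seen. H2 genes are close copies, and their probes may not tell them apart. For MHC class II, 7 of 12 genes were positive and the median was 0.06, but it was 0.20 without Lin28b array 1 and -0.19 without array 2.

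Promoters of the interferon genes were searched for the interferon-stimulated response element. The letters GAAANNGAAA, on either strand and with overlapping matches counted, were looked for in RefSeq windows (GRCm38.p6) of 250 bases before to 50 after each start. They occurred in 18 of 33 windows of the interferon list (54.5%, 28 of its 40 genes having a window) and in 4 of 19 of the MHC class I list (21.1%), against 3.32% of 21230 windows of all measured genes. Of 26 windows of stromal markers 0 held them, and of 66 of let-7 targets 1 did. Of the interferon genes with a match before the start, 3 were taken by smallest p. Some genes had been set aside by position first, so a gene of smaller p may be missing. The stretches of the 3 genes are shown 5′ to 3′ on the gene's strand, with the match in capitals. They lie at chr3:142620579-142620638, chr7:104465195-104465254 and chr8:71537562-71537627 in GRCm38.
Gbp2: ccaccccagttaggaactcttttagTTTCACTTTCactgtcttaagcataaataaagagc
Trim30a: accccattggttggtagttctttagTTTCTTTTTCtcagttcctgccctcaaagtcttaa
Bst2: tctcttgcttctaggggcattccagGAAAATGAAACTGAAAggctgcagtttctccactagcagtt

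Trim30a, a negative regulator of inflammatory signalling, differed by -0.65 ± 0.09 and Bst2, which tethers budding virus, by -0.70 ± 0.10. Within the interferon list, the 17 genes with the letters had a median difference of -0.70 and those with a window but no match one of -0.55, so genes of either kind lay lower. Among measured genes outside the interferon and MHC class I lists, 658 had the letters, with a median of -0.10, against -0.05 for the others with a window. The match describes the letters and not a bound factor. The list was made of interferon-induced genes, so its share of matches says nothing of the Lin28b difference.

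**Figure D4:**
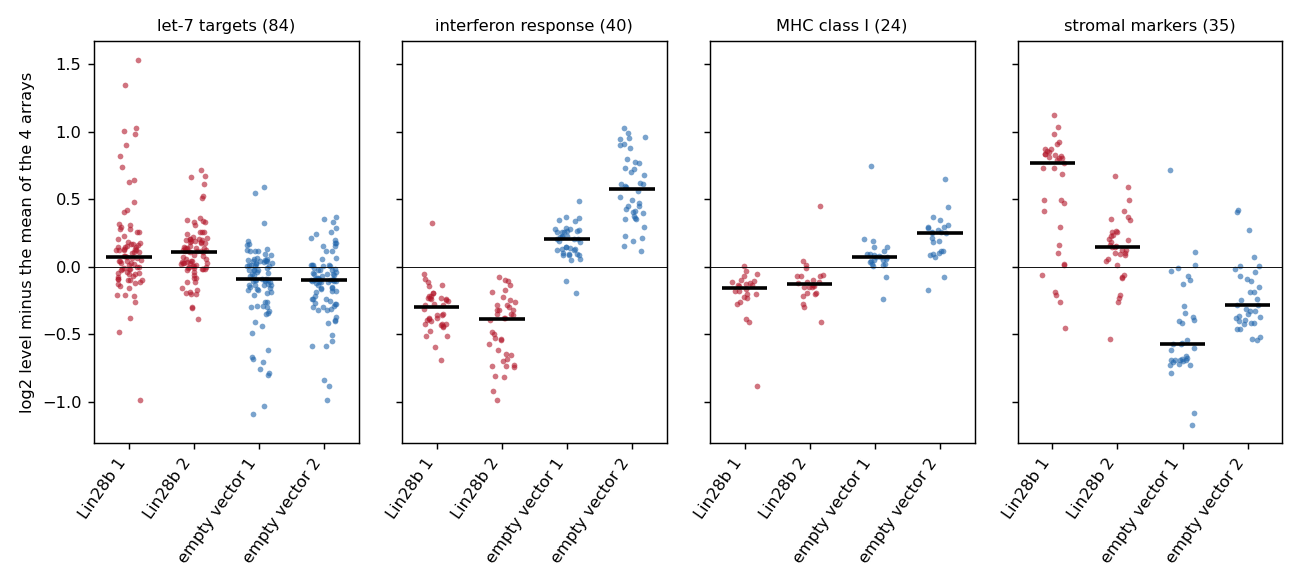
For each measured member of 4 gene lists, its log2 level on an array minus its mean over the 4 arrays, with 1 point a gene and a black bar at the median of the list (84 let-7 targets without Lin28b, 40 interferon genes, 24 MHC class I genes and 35 stromal markers). Stromal markers lie at a median of 0.77 on Lin28b array 1 and 0.15 on array 2, and at -0.57 and -0.28 on the empty vector arrays.

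Transcripts of stromal cells were higher with Lin28b, and unequally so between its arrays. Of 35 stromal markers measured, 31 were positive and 4 negative, with a median of 0.88, and 28 had both Lin28b arrays above both controls (15% of all genes). Of the 35, 24 had an unadjusted p below 0.05 on the higher side (4.73% of all genes), and none was called. Fewer reached that p when either empty vector array was left out, where the median was 0.72 without array 1 and 1.06 without array 2. Their summed level, relative to the 75th percentile, was 226 and 182 on Lin28b arrays 1 and 2 and 144 and 153 on the empty vector arrays. Acta2, smooth muscle actin, read 0.71 and 0.56 with Lin28b and -0.10 and 0.01 with empty vector (0.68 ± 0.07, adjusted p = 0.199). Col1a1, a chain of collagen I, read 1.25 and 0.80 against -0.26 and -0.02 (1.16 ± 0.17, adjusted p = 0.209). Ccn1, a matricellular protein, differed by 1.10 ± 0.14 and Col5a1, a chain of collagen V, by 1.11 ± 0.16. The defining markers Dcn, Lum and Postn were not well above background on any array, and were named after their values were seen. The median was 0.60 without Lin28b array 1 and 1.24 without Lin28b array 2. In such bulk samples, more cells of a type and more RNA per cell cannot be told apart, and the part of the OP9 layer, which shared the culture, was not tested. The cells were sorted as GFP-positive before RNA was made, and how far this removed stromal cells was not tested.

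These levels moved with part of the let-7 result. Hmga2, Igf2bp1 and Igf2bp2 were higher on Lin28b array 1 than on array 2, as the stromal markers were, while Arid3a had its higher value on array 2. Pbx2 and E2f5 were equal on both arrays to within 0.1, but they were named by smallest p, which favours such genes. Without Lin28b array 1, 63 of 85 targets were still positive and the median was 0.19, with 32 at an unadjusted p below 0.05 on the higher side (1960 of all 39412 probes in that fit). The part of stromal RNA in the levels of single targets was not tested. The lists share 1 gene, Col1a2, and 61 of 83 targets were positive without it and Lin28b.

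Other genes near the top of the list of higher genes, none of them called, were of mixed kinds. Hspb1, a small heat shock protein, read -2.27 and -2.54 with Lin28b and -3.54 and -3.43 with empty vector (1.08 ± 0.13, adjusted p = 0.205). Olfr1082, an olfactory receptor gene, read -4.88 and -4.69 with Lin28b. With empty vector its signal did not stand above background, a level at least 3.79-fold lower, while its other probe was not well above background in either group. Fkbp14, a peptidyl-prolyl isomerase of the secretory pathway, was at least 4.41-fold higher on 1 probe and differed by 0.69 ± 0.21 on the other. Zfp37, a zinc finger gene, was at least 3.59-fold higher.

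The lower side also held genes other than the interferon genes named above. Ttyh1, a membrane channel protein, read -4.73 and -4.72 with Lin28b and -3.06 and -3.07 with empty vector (-1.66 ± 0.13, adjusted p = 0.168). A second Ttyh1 probe differed by -1.41 ± 0.19 and the remaining one was not well above background. Vipr1, a neuropeptide receptor, read -4.46 and -4.45 against -2.95 and -3.05 (-1.45 ± 0.12, adjusted p = 0.168), and its other probe differed by -0.43. Jaml, a junctional adhesion molecule of leukocytes, read -2.44 and -2.37 against -1.43 and -1.18 (-1.10 ± 0.11, adjusted p = 0.195). Gm9706, an unnamed gene model, read -1.84 and -1.89 against -0.87 and -0.36 (-1.25 ± 0.17). Whether it belongs to the interferon genes was not tested. Muc6, a gastric mucin, was at least 3.62-fold lower and Shisa9, a synaptic membrane protein, at least 2.25-fold lower, both dim with empty vector and not well above background with Lin28b. None of these passed.

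Genes of pro-B identity differed by little at the median, and all those at an unadjusted p below 0.05 lay lower. Of 35 measured, 26 were negative and 9 positive, with a median of -0.07 (all genes, -0.08). Over the 26445 probes well above background on at least 2 of the 4 arrays, which hold all 35, the median was -0.04. Of the 35, 10 were lower at an unadjusted p below 0.05 (28.6%, against 7.13% of all genes) and 0 higher. The split turned on single arrays. It was 18 negative and 17 positive without Lin28b array 1, and 34 negative and 1 positive (median -0.16) without Lin28b array 2. Without empty vector array 1 the median was -0.09, and fewer of the 35 but more of all probes were lower at that p. Dntt, the terminal transferase that diversifies antigen receptor junctions in adult but little in fetal life, read 5.70 and 5.53 with Lin28b and 6.48 and 6.41 with empty vector (-0.83 ± 0.09, adjusted p = 0.199). Kit, the receptor for stem cell factor, read -1.31 and -1.53 against -0.86 and -0.90 (-0.54 ± 0.09, adjusted p = 0.253). Lef1, a transcription factor of early lymphocytes, differed by -0.38 ± 0.07 and Vpreb2, of the surrogate light chain, by -0.29 ± 0.06. In all 4 both Lin28b arrays lay below both controls, as in 15 of the 35 and in 39.2% of all genes, dim ones included.

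Among genes of later B cell stages, 16 of 32 were positive and 16 negative, with a median of 0.01. Its sign turned on single arrays, at 0.16 without Lin28b array 1 and -0.12 without array 2. Ccr6, a chemokine receptor, read -3.04 and -2.93 with Lin28b and -3.81 and -3.81 with empty vector (0.83 ± 0.11, adjusted p = 0.205). Btla, an inhibitory receptor, read -0.73 and -0.56 against -1.17 and -1.14 (0.51 ± 0.08, adjusted p = 0.220). Ccr7, a homing receptor that is also on the let-7 list, differed by 0.59 ± 0.14 and Il4ra by 0.70 ± 0.19. Of 20 genes associated with B-1 cells, the B cells made mainly by fetal progenitors, 12 were positive with a median of 0.12. They included Arid3a, Anxa2 (1.17 ± 0.24), which stromal cells also express, and Zbtb20 (-0.45 ± 0.08).

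In the V(D)J recombination list 5 of 16 were positive, with a median of -0.06. Apart from Dntt its members were close to level, with Atm, the DNA break kinase, at -0.16 ± 0.05 and Rag2 at -0.12 ± 0.06. Stem and multipotent progenitor genes were split, 16 positive and 17 negative. Beside Hmga2, Egr1, an immediate early gene, differed by 0.45 ± 0.06 and Gfi1b, a repressor of the erythroid and megakaryocyte lineages, by -0.70 ± 0.08.

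Imprinted growth genes, the class of H19, were also split, 13 of 31 positive with a median of -0.11. At an unadjusted p below 0.05, 7 were higher (22.6%, against 4.73% of all genes) and 1 lower (3.23%, against 7.13%). The median was 0.07 over the 20 well above background on at least 2 arrays and 0.05 in the authors' table. Beside H19, Meg3, a maternally expressed noncoding RNA, read -1.08 and -1.69 with Lin28b and -3.45 and -2.46 with empty vector (1.57 ± 0.38, adjusted p = 0.300). Mirg, of the same cluster, differed by 1.26 ± 0.28 and Slc38a4, an amino acid transporter, by 1.38 ± 0.33. In these 3 genes Lin28b array 1 was higher than array 2, as with the stromal markers, whose part was not tested. The H19 probe read 4.71 and 4.61 on the Lin28b arrays, and the part of stromal RNA in it was not tested either.

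**Figure D5:**
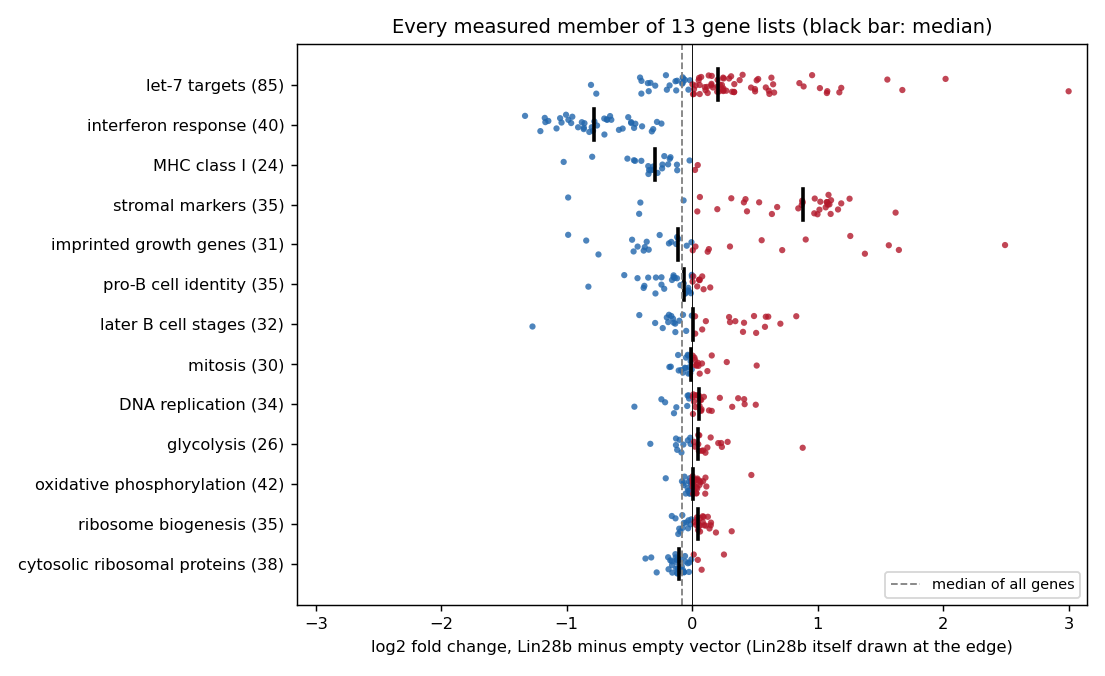
Log2 fold change, Lin28b minus empty vector, of every measured member of 13 gene lists (number in brackets), with a black bar at the median of each list and a dashed line at the median of all genes, -0.08. The interferon list has its median at -0.79, MHC class I at -0.29, let-7 targets at 0.20 and stromal markers at 0.88, while lists of division and metabolism lie between -0.10 and 0.05.

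Genes of growth and metabolism stayed near 0. The median difference was -0.01 for 30 mitosis genes, 0.05 for 34 DNA replication genes, 0.05 for 26 glycolysis genes, 0.00 for 42 genes of oxidative phosphorylation and 0.04 for 35 of ribosome biogenesis. Within them Polr1b, a subunit of RNA polymerase I, differed by 0.31 ± 0.05 and Hk2, which phosphorylates glucose, by 0.24 ± 0.06. For 38 cytosolic ribosomal proteins the median was -0.10, with 34 negative, and it was -0.01 after quantile scaling.

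The IL-7 and STAT5 list had a median of 0.01 (12 of 22 positive). Its member of smallest p was Osm, a cytokine of the IL-6 family, which read -4.11 and -4.15 against -3.49 and -3.13 (-0.82 ± 0.17, adjusted p = 0.270). The p53 targets (median 0.01), the amino acid stress response (0.02), cholesterol synthesis (-0.03) and the Notch pathway (-0.01) were as close to level. Nupr1, a stress-induced chromatin protein, differed by 0.87 ± 0.17, Srebf2, which drives sterol synthesis, by -0.48 ± 0.10, Heyl, a Notch target, by -0.50 ± 0.10 and Bbc3, a death gene, by -0.20 ± 0.05. None of these was called.

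Markers of other blood cells were measured as a check of the sort. Of 32 myeloid markers 17 were positive (median 0.12), with summed levels of 91.2 and 99.8 with Lin28b and 97.2 and 99.6 with empty vector. At an unadjusted p below 0.05, 4 of the 32 were higher (12.5%, against 4.73% of all genes) and 4 lower (12.5%, against 7.13%). Among these markers Lyz1, a lysozyme, read -0.89 and -0.96 against -0.44 and -0.51. Csf1r, the macrophage growth factor receptor, read -1.95 and -2.06 against -1.52 and -1.56, and the integrin Itgam 2.78 and 2.85 against 3.05 and 3.13. Of the genes that granulocytes also express, S100a9 read -4.61 and 0.56 with Lin28b, and S100a8 read -6.64 and -1.09. Neither stood well above background with empty vector. Both were higher on Lin28b array 2 and were named after their values were seen. Without that array the myeloid median was -0.11, so the sign of that list turned on this array.

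Summed levels of mast cell and basophil markers lay between 0.431 and 0.487, of hepatocyte markers between 1.21 and 1.44, of erythroid markers between 16.1 and 17.2 and of T, NK and innate lymphoid markers between 15.5 and 16.4, with overlapping groups in each. The dendritic list summed to 72.2 and 83.7 with Lin28b and 92.3 and 93.9 with empty vector. Bst2, which that list shares with the interferon genes, differed by -0.70 ± 0.10, and Siglech, a receptor of plasmacytoid dendritic cells, read 5.36 and 5.63 against 5.83 and 5.82 (-0.33 ± 0.11). Plasmacytoid cells are a source of interferon, and the part of such cells in the lower interferon genes was not tested. Among the conventional dendritic markers Clec9a and Xcr1 were not well above background on any array.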

How the data were processed

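RNA was hybridised to 1-colour Agilent arrays. The scanner files hold spot intensities, which per the file headers the authors' Feature Extraction 9.5.3.1 had corrected for background. A deposited table of log2 values, normalized in a way the labels do not state, served as an alternative. On its bright probes it rose with the scanner signal at slopes of 0.983 to 1.01, with medians of 7.22 on each array, so its scale and direction were taken as log2 and its centring is unknown.

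Of 44397 spots, 1377 controls were left out. The processed signal was scaled to the 75th percentile of each array and then taken as log2. Outlier-flagged spots were dropped and the remaining copies of a probe averaged (399 probes had 10). This departed from leaving out every probe with a flag, and 17 probes without an unflagged spot on an array were left out. R 4.3.3 with limma 3.58.1 (lmFit, eBayes with trend, prior degrees of freedom 2.96, residual 2) tested 39412 probes of the 4 arrays, without a filter on dim probes. The script was tested on simulated data. Probes were named by accession (26148), symbol (3123) or synonym (910) through the RefSeq table of GRCm38.p6, and 9231 kept the file's name. Probe positions are mm9, per the file headers. A gene was represented by its probe of highest mean.

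Genes named are 12 preselected (Lin28b, Lin28a, Arid3a, Arid3b, Igf2bp1, Igf2bp2, Igf2bp3, Hmga1, Hmga2, H19, Igf2, Dntt), the 12 largest rises and 12 largest falls among called probes, filled up by smallest p with a change of at least 1 and said to be not called, and up to 4 per list by smallest p. Not every gene the rule allows is named, and some are not reported here. The members, the 29 lists and the rule were chosen with earlier results of these data known. The small number of arrays limits the precision.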

Additional observations from a re-analysis of the deposited data

How the results depend on the processing

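The counts of called probes depended on the setting. Against 4 calls (3 higher, 1 lower), there were 0 without the trend, 1 with quantile scaling (0 higher), and 2 in the authors' table (1 higher). With the replicate number as a block, 406 probes were called (195 higher, 211 lower). Deviations of same-numbered arrays correlated at -0.135 on bright probes and -0.040 on all, so the numbers were not taken as pairing the samples. The crossed pairing, chosen after seeing the data, called 1088 (606 higher, 482 lower). Leaving out single arrays gave 0 to 4798 calls (0 to 1058 higher, 0 to 4542 lower), where the lone array of a group is assumed to vary like the other group. It was 4798 without empty vector array 1 and 0 without array 2, and 1054 and 1649 without Lin28b arrays 1 and 2. All 4 probes remained among the calls in both blocked fits and in each of the 3 other leave-one-out fits. The Lin28b probe lost its call without the trend (9.22, adjusted p = 0.119), with quantile scaling (9.41, adjusted p = 0.0746) and without empty vector array 2 (9.37), and ranged from 9.06 to 9.37 when single arrays were left out. These are fitted differences against a background signal and not measured folds. It was called but smaller with normexp (5.10) and in the authors' table (5.84). The stromal median ranged from 0.60 to 1.24 over those fits, with 1.06 without empty vector array 2. Medians of let-7 targets and interferon genes moved by less than the spread between arrays under all other settings. None of the 30 gene results run under the alternatives changed sign, and the other genes named were not run. With the spread of all 8 arrays, 17 interferon genes were lower and 19 let-7 targets and 15 stromal markers higher at an unadjusted p below 0.05, beside 542 probes lower and 603 higher. Medians of the lists on mitosis, oxidative phosphorylation, stem cells, IL-7, V(D)J recombination and amino acid stress, near 0, turned sign in at least 1 fit without an array. Causes were not tested. Dim probes limit what can be read, since probes near background spread more.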
